A study of Homo sapiens with 22 samples.

Results

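The 9 genes described here encode small heat shock proteins (HSPB1, HSPB8 and CRYAB), the mitochondrial chaperonin (HSPD1 and HSPE1), an HSP110 chaperone (HSPH1), the co-chaperone BAG3, and the heat shock transcription factors HSF1 and HSF2. They were taken by symbol with no cutoff on their values, but with earlier results of these data known. All 9 were found among the 20668 genes measured by RNA-seq. The cells were MDA-MB-231, an established mesenchymal line of triple-negative breast cancer (TNBC), kept for 3 days in medium with 5% charcoal-stripped serum before treatment, which lowers its steroid content. There were 5 groups of 2 libraries: vehicle, 100 nM Dex (dexamethasone, a synthetic glucocorticoid that activates the glucocorticoid receptor, GR) for 2 h or 4 h, and 10 µM CpdA (Compound A, a non-steroidal GR ligand) for 2 h or 4 h. The labels give no time for the vehicle libraries, which serve as the control of all 4 treatments, and the doses of the ligands differ. The vehicle libraries may stem from different times, in which case their spread and each change against vehicle would mix times, which was not tested. The study asked how the ligands differ in the genes they regulate through GR.

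Chaperones hold or refold proteins that have lost their shape. Small heat shock proteins bind unfolding proteins without using ATP, HSPD1 forms the barrel and HSPE1 the lid of the chamber in which mitochondrial proteins fold, HSPH1 exchanges the nucleotide of HSP70, and BAG3 joins HSP70 to HSPB8 and passes their clients to autophagy. Under proteotoxic stress HSF1 forms trimers on heat shock elements, which are inverted repeats of GAA units in DNA, and switches such genes on. HSF1 is controlled mainly at the protein level, and its mRNA need not move when its targets do.

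Expression is given as RPKM, reads scaled for transcript length and for the number of mapped reads, which is a share of a library, so levels of different genes can be set side by side. In bulk RNA, fewer cells of a type and less RNA per cell cannot be told apart. The one-read step of short genes put the depth of the 10 libraries between about 51300000 and 62100000 reads. The labelled cell line matched VIM (1267 to 1464 RPKM) and CD44 (120 to 182 RPKM), with ESR1 and PGR at most 0.00484 RPKM, while EPCAM, usually low in mesenchymal cells, stood at 8.02 to 10.6 RPKM and ERBB2, not overexpressed in TNBC, at 15.9 to 21.6 RPKM. Markers of leukocytes and endothelium were at most 0.324 RPKM, and the fibroblast collagen COL1A1 was at 1.23 to 2.60 RPKM. The GR target FKBP5 averaged 6.50 RPKM with vehicle, 74.2 and 207 RPKM after 2 h and 4 h of Dex, and 6.02 and 7.88 RPKM after 2 h and 4 h of CpdA. With CpdA it was not called at 2 h (limma adjusted p = 0.47) and was 1.21-fold above vehicle at 4 h (limma adjusted p = 0.023). The other GR targets named as controls also rose with Dex and, less far, with CpdA: after 2 h PER1 went from 1.67 to 36.4 RPKM with Dex and 3.91 RPKM with CpdA (2.32-fold, limma adjusted p = 0.0033), and TSC22D3 reached 303 RPKM with Dex and 12.2 RPKM with CpdA (1.36-fold, limma adjusted p = 0.0092). After 4 h of CpdA PER1 was 1.77-fold (limma adjusted p = 0.0083) and TSC22D3 1.21-fold (limma adjusted p = 0.030) above vehicle.

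The genes spanned a wide range of levels in vehicle-treated cells. HSPB1 was the most abundant (162.8 ± 5.20 RPKM, SD, n = 2), followed by HSPD1 (71.7 ± 3.04), HSF1 (59.5 ± 3.63) and BAG3 (55.3 ± 1.97). HSPE1 (32.0 ± 0.289) and HSPH1 (28.4 ± 1.67) came next, then HSF2 (5.35 ± 0.511), HSPB8 (3.85 ± 0.420) and CRYAB (0). HSF1 and BAG3 were neighbours whose libraries lay only 0.242 RPKM apart, less than their replicate spread, and HSPE1 and HSPH1 likewise did not differ beyond their spread. After 4 h of CpdA this order had changed: HSPH1 averaged 59.7 RPKM and overlapped HSF1 (58.7 RPKM), and HSPB8 (9.30 RPKM) stood above HSF2 (5.92 RPKM). The range of group means on the log2 scale was 1.92 for HSPB8, 1.48 for HSPH1 and 0.80 for BAG3, but only 0.15 for HSF1.

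**Figure D1:**
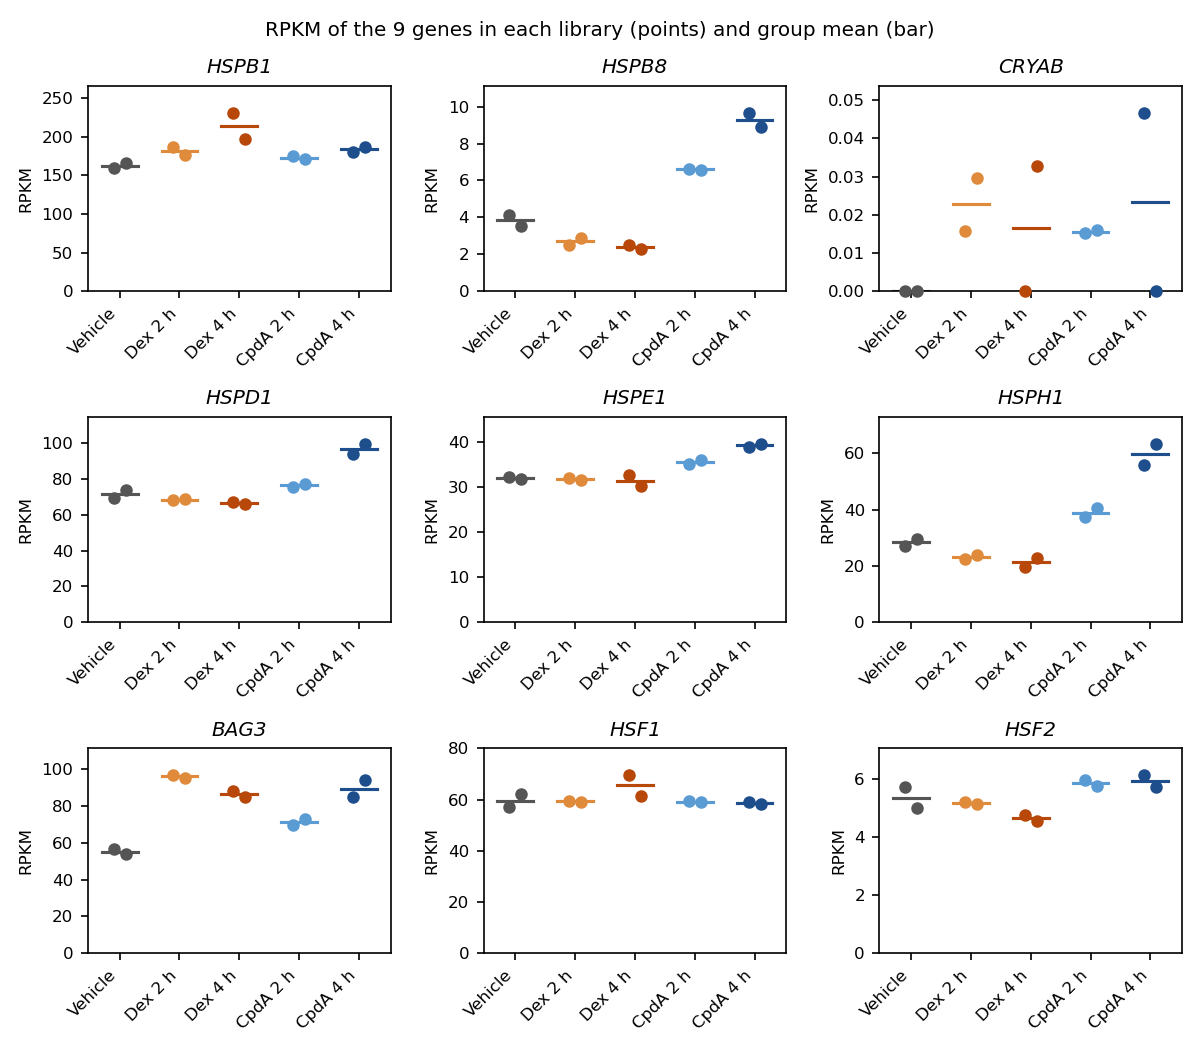
RPKM (linear axes from 0, one panel per gene) of the 9 genes in the 5 groups; each point is 1 library and each bar the mean of 2 libraries. HSPB8, HSPD1, HSPE1 and HSPH1 were highest after 4 h of CpdA, BAG3 was highest after 2 h of Dex (96.2 RPKM), and the CRYAB axis ends below 0.06 RPKM.

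Changes were tested with limma on log2(RPKM + 0.1), with p-values adjusted by Benjamini-Hochberg over the 12713 genes that reached 0.5 RPKM in at least 2 libraries. A gene is said to have risen or fallen only at an adjusted p under 0.05, and fold changes are on the log2(RPKM + 0.1) scale. Of the 9 genes 8 were tested, each at 2.26 RPKM or more in every library, and CRYAB was not. After 4 h of CpdA 5 of the 8 rose (HSPB8, HSPH1, BAG3, HSPD1 and HSPE1) and none fell, where 6.76% of all genes tested rose and 13.8% fell (20.5% either way), and 2 of the 8 (HSPB8 and HSPH1) rose past 2-fold, as 0.535% of all genes did. After 2 h of CpdA 3 rose (HSPB8, HSPH1 and BAG3) and none fell, where 1.89% of all genes rose and 4.29% fell (6.18% either way). After 2 h of Dex 1 rose (BAG3) and 1 fell (HSPB8), against 4.49% and 5.82% of all genes, or 10.3% either way. After 4 h of Dex 2 rose (BAG3 and HSPB1) and 2 fell (HSPB8 and HSPH1), against 9.26% and 18.2% of all genes, or 27.4% either way. The median log2 fold change of the 8 genes was 0.14 and 0.36 after 2 h and 4 h of CpdA, where that of all genes was -0.02 and -0.04, and -0.03 and -0.07 after 2 h and 4 h of Dex, where that of all genes was -0.02 and -0.05. These 4 comparisons share the vehicle libraries. Where the libraries of a treatment are said below to lie above or below those of vehicle, this is a description only. Such a separation is frequent by chance with 2 libraries against 2 (exact permutation test, p = 0.333). How many of all genes separated in this way was not counted. The share of higher genes among all those called depended on scaling: it was 33.8% after 4 h of Dex (44.8% with quantile normalization and 49.9% with median scaling), 33% after 4 h of CpdA (46.8% and 55.8%) and 30.5% after 2 h of CpdA (44.6% with median scaling).

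**Figure D2:**
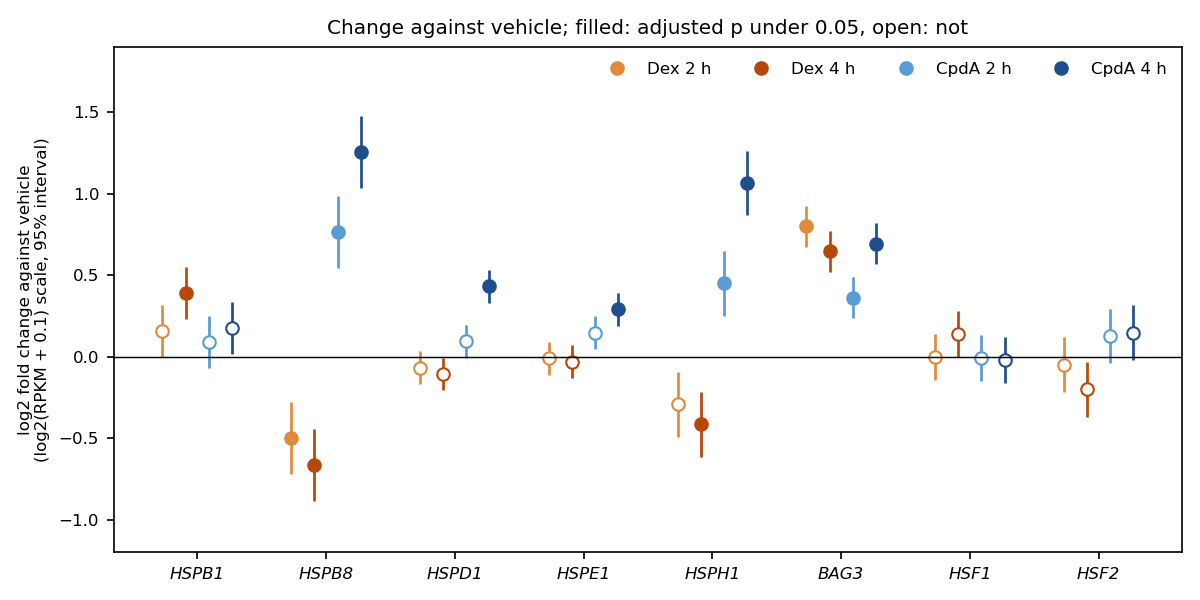
Log2 fold change against vehicle (vertical axis, log2(RPKM + 0.1) scale) of the 8 genes tested, with bars for the 95% interval of the limma fit (2 libraries a group); filled points have an adjusted p under 0.05. HSPB8 and HSPH1 lie below 0 with Dex and above 0 with CpdA, BAG3 lies above 0 in all 4 treatments, and the HSF1 points lie between -0.02 and 0.14.

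HSPB8, the small heat shock protein that works with BAG3 in clearing misfolded proteins, moved in opposite directions with the ligands. It stood at 3.55 and 4.14 RPKM in the vehicle libraries, 2.50 and 2.88 after 2 h of Dex, and 2.26 and 2.51 after 4 h of Dex. With CpdA it stood at 6.56 and 6.64 RPKM after 2 h and 8.92 and 9.67 RPKM after 4 h. Both libraries of each Dex group lay below both vehicle libraries, and both libraries of each CpdA group lay above them. HSPB8 rose 1.70-fold after 2 h of CpdA (log2 fold change 0.77, SE 0.098, limma adjusted p = 0.0023) and 2.39-fold after 4 h (1.26, SE 0.098, limma adjusted p = 7.4e-05). With Dex it was 1.41-fold lower after 2 h (log2 fold change -0.50, limma adjusted p = 0.010) and 1.59-fold lower after 4 h (-0.67, limma adjusted p = 0.00089). The fall at 2 h did not pass without vehicle replicate 1 (log2 fold change -0.39, limma adjusted p = 0.053) or Dex 2 h replicate 1 (-0.40, limma adjusted p = 0.099), or when only the 2 groups compared were fitted (limma adjusted p = 0.051), whereas the other HSPB8 changes against vehicle passed in all 20 alternative fits. At the transcript length of 1861 bases the lowest HSPB8 value corresponded to about 236 reads, a counting error of about 6.51%.

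HSPB1 (HSP27), an abundant small heat shock protein that also guards the actin cytoskeleton, rose after 4 h of Dex and was not called in the other 3 treatments. Its levels were 159 and 166 RPKM with vehicle, 176 and 187 after 2 h of Dex, and 197 and 231 after 4 h of Dex. With CpdA they were 171 and 175 RPKM after 2 h and 180 and 188 RPKM after 4 h. Every treated library lay above both vehicle libraries, which by itself is not a rise by the rule used here. Replicate 1 of the 4 h Dex group was the highest of all. The rise after 4 h of Dex was 1.31-fold (log2 fold change 0.39, SE 0.071, limma adjusted p = 0.0031), and it passed in all 20 alternative fits, with a log2 fold change of 0.28 without Dex 4 h replicate 1. The log2 fold change was 0.16 after 2 h of Dex (95% interval -0.00 to 0.32, limma adjusted p = 0.24), 0.09 after 2 h of CpdA (-0.07 to 0.25, limma adjusted p = 0.54) and 0.18 after 4 h of CpdA (0.02 to 0.34, limma adjusted p = 0.12). When either 4 h Dex library was left out, the values after 2 h of Dex (limma adjusted p = 0.042 in both fits) and after 4 h of CpdA (0.016 in both) passed at the same fold change.

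CRYAB, the alpha B-crystallin of lens and muscle, was hardly detected. The library values were 0 to 0.0467 RPKM and were whole multiples of a single step in each library, equal to 0 to 3 reads for a transcript of about 1083 bases. Both vehicle libraries were at 0, the 2 h Dex libraries held 1 and 2 reads, the 4 h Dex libraries 0 and 2, the 2 h CpdA libraries 1 each, and the 4 h CpdA libraries 3 and 0. A count of 0 allows up to 3 reads, or 0.0446 to 0.0541 RPKM at these depths, so no fold change is given and a difference was not detectable at this depth. Of the 8 other small heat shock protein genes looked for, 4 were listed and only HSPB11 was tested, and it was not called in any of the 9 comparisons (log2 fold change 0.13 after 4 h of CpdA).

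The promoter sequences of HSPB8 and HSPB1 are shown because each holds a pair of facing GAA units, in capitals, a partial match to a heat shock element. They are the 250 bases before the RefSeq start site (promoter table of GRCh38.p14), and the whole window of each was found once, with no mismatch, in GRCh37, the build of the data, which puts them on the plus strand at chr12:119616486-119616735 (HSPB8) and chr7:75931740-75931989 (HSPB1).
HSPB8: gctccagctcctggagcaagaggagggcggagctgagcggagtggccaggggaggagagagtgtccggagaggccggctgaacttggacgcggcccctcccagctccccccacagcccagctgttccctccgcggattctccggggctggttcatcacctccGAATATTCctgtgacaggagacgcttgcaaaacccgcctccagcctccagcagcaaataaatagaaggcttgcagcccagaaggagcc
HSPB1: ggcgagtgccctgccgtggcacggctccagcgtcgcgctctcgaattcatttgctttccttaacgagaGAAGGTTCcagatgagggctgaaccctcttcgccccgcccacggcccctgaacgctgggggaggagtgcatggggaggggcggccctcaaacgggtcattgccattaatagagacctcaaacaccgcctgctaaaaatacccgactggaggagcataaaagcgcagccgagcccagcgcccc
The HSPB8 pair lay 88 to 81 bases before the start site, outside the gene's principal transcript, and a further pair lay inside its first exon, 5 to 12 bases on from the start. The HSPB1 pair lay 182 to 175 bases before the start. In a search of both strands over 35116 promoter windows of 250 bases before to 50 bases after a start, 13.5% held a pair (GAANNTTC or TTCNNGAA), as did 16.2% of gene symbols with a window. The chromosome of HSF1 was left out of this search, and so out of all shares of windows and symbols given here. Of the 9 genes 7 had a window in the search and 3 a pair (HSPB1, HSPB8 and HSPD1). HSPB8, which rose with CpdA, and HSPB1, for which no rise with CpdA was called, both have the pair. Its bearing on either gene was not tested. A match is a description of the letters and not evidence of a bound site.

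HSPD1 and HSPE1, the chaperonin and its co-chaperonin, rose together after 4 h of CpdA. HSPD1 levels were 69.6 and 73.9 RPKM with vehicle, 68.1 and 68.7 after 2 h of Dex, and 66.2 and 67.0 after 4 h of Dex. They were 75.8 and 77.4 RPKM after 2 h of CpdA and 94.0 and 99.9 RPKM after 4 h, the highest of the 10 libraries. HSPE1 levels were 31.8 and 32.2 RPKM with vehicle, 31.6 and 32.0 after 2 h of Dex, and 30.2 and 32.6 after 4 h of Dex. They were 35.0 and 36.0 RPKM after 2 h of CpdA and 38.9 and 39.6 RPKM after 4 h. For both genes the CpdA libraries lay above the vehicle libraries at both times, while with Dex HSPE1 overlapped vehicle and HSPD1 lay just below it. After 4 h of CpdA HSPD1 rose 1.35-fold (log2 fold change 0.43, SE 0.045, limma adjusted p = 0.00027) and HSPE1 rose 1.22-fold (0.29, SE 0.045, limma adjusted p = 0.0020).

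At 2 h of CpdA neither chaperonin gene passed. The log2 fold change of HSPD1 was 0.10 (95% interval -0.01 to 0.20, limma adjusted p = 0.27) and that of HSPE1 was 0.15 (0.05 to 0.25, limma adjusted p = 0.092). HSPE1 passed when either 4 h Dex library was left out (limma adjusted p = 0.023 and 0.024) and with quantile normalization (0.045). With Dex the log2 fold changes of HSPD1 were -0.07 (-0.17 to 0.03) at 2 h and -0.11 (-0.21 to -0.00) at 4 h, and those of HSPE1 were -0.01 (-0.11 to 0.09) and -0.03 (-0.13 to 0.07), none of which passed (lowest limma adjusted p = 0.12). Both HSPE1 intervals under Dex thus lay between -0.13 and 0.09, a narrow band around 0.

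The genes HSPD1 and HSPE1 lie head to head on chromosome 2, their RefSeq starts 105 bases apart on opposite strands. A further HSPD1 start lies 434 bases further into the gene, and the stretch before it holds a run of alternating GAA and TTC units, shown in capitals with the bases on either side. It is read on the HSPD1 strand (minus) from the GRCh38.p14 promoter table, and its whole window was found once in GRCh37, which puts it at chr2:198364785-198364814.
HSPD1: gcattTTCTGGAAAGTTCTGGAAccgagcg
The run of 18 bases lay 294 bases from the HSPE1 start and 189 bases inside the upstream HSPD1 start. Of the principal HSPD1 transcripts annotated, it lay in an intron of some, in an exon of 1 and outside the rest. It was the only match among the 7 genes with a window to the longer pattern of 3 alternating GAA and TTC units, each 2 bases apart, which 0.49% of all windows held (0.608% of gene symbols with a window). In GRCh37 the annotated HSPD1 gene (198351308-198381461, minus) covers the whole of HSPE1 (198364864-198368173, plus), and HSPE1 also shares exons with the readthrough gene HSPE1-MOB4 (0.587 to 1.92 RPKM). The library kit named by the study does not mark strand, so reads from overlapping exons cannot be told apart. HSPD1 and HSPE1 have processed pseudogene copies too, and their values are uncertain to that extent. HSPE1-MOB4 and the downstream gene MOB4 (8.20 to 9.61 RPKM) were called in none of the 9 comparisons.

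HSPH1, the HSP110 chaperone that recharges HSP70 and helps dissolve aggregates, followed the pattern of HSPB8. It measured 27.2 and 29.6 RPKM with vehicle, 22.4 and 24.0 after 2 h of Dex, and 19.8 and 22.9 after 4 h of Dex. With CpdA it measured 37.3 and 40.5 RPKM after 2 h and 55.9 and 63.5 RPKM after 4 h. All 4 Dex libraries lay below and all 4 CpdA libraries above the vehicle libraries. HSPH1 rose 1.37-fold after 2 h of CpdA (log2 fold change 0.45, SE 0.088, limma adjusted p = 0.019) and 2.09-fold after 4 h (1.07, SE 0.088, limma adjusted p = 9.0e-05), and it was 1.33-fold lower after 4 h of Dex (-0.41, limma adjusted p = 0.0073). After 2 h of Dex its log2 fold change of -0.29 (95% interval -0.49 to -0.09) did not pass (limma adjusted p = 0.075), though it did when either 4 h Dex library was left out (0.034 in both fits), when only the 2 groups compared were fitted (0.042), or in a fit blocked on replicate number (0.0024). The 2 h CpdA rise did not pass without vehicle replicate 1 (limma adjusted p = 0.067), vehicle replicate 2 (0.054), CpdA 2 h replicate 1 (0.073) or CpdA 2 h replicate 2 (0.15), with log2 fold changes of 0.39 to 0.51, nor without the filter on low genes (0.072). The 4 h Dex fall did not pass without vehicle replicate 2 (-0.35, limma adjusted p = 0.052). The 4 h CpdA rise passed in all 20 alternative fits.

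BAG3, which links HSP70 to small heat shock proteins and to autophagy, was the only one of the 8 genes to rise in all 4 treatments. Its levels were 53.9 and 56.7 RPKM with vehicle, 95.5 and 97.0 after 2 h of Dex, and 84.8 and 88.3 after 4 h of Dex. With CpdA its levels were 69.5 and 72.8 RPKM after 2 h and 84.9 and 94.1 RPKM after 4 h. No treated library reached down to the vehicle range, and the 2 h Dex libraries were the highest. BAG3 rose 1.74-fold after 2 h of Dex (log2 fold change 0.80, SE 0.055, limma adjusted p = 1.5e-05) and stood 1.57-fold above vehicle at 4 h (0.65, limma adjusted p = 2.9e-05). With CpdA the rise was 1.29-fold at 2 h (0.36, limma adjusted p = 0.0060) and 1.62-fold at 4 h (0.69, limma adjusted p = 8.0e-05). Without CpdA 2 h replicate 2 the 2 h CpdA value was 0.33 on the log2 scale and did not pass (limma adjusted p = 0.070), and the other 3 rises passed in all 20 alternative fits.

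HSF1 and HSF2, the transcription factors that bind heat shock elements, were called in no treatment against vehicle. HSF1 measured 56.9 and 62.0 RPKM with vehicle, 59.1 and 59.5 after 2 h of Dex, and 61.3 and 69.7 after 4 h of Dex. With CpdA it measured 58.8 and 59.6 RPKM after 2 h and 58.3 and 59.1 RPKM after 4 h. All 4 treated groups overlapped the vehicle range, and replicate 1 of the 4 h Dex group stood highest, as it did for HSPB1. The HSF1 log2 fold change was -0.00 after 2 h of CpdA (95% interval -0.15 to 0.14) and -0.02 after 4 h (-0.16 to 0.12), while it was -0.00 after 2 h of Dex (-0.14 to 0.14) and 0.14 after 4 h (-0.00 to 0.28, limma adjusted p = 0.14). Without Dex 4 h replicate 2 the 4 h Dex value was 0.23 and passed (limma adjusted p = 0.0099).

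HSF2 measured 4.98 and 5.71 RPKM with vehicle, 5.13 and 5.18 after 2 h of Dex, and 4.53 and 4.74 after 4 h of Dex. With CpdA it measured 5.73 and 5.94 RPKM after 2 h and 5.71 and 6.13 RPKM after 4 h. The 4 h Dex libraries lay below and the CpdA libraries above the vehicle libraries, by margins smaller than the gap between the vehicle replicates. The HSF2 log2 fold change was -0.05 after 2 h of Dex (95% interval -0.22 to 0.12), -0.20 after 4 h of Dex (-0.37 to -0.03, limma adjusted p = 0.077), 0.13 after 2 h of CpdA (-0.04 to 0.29) and 0.15 after 4 h of CpdA (-0.02 to 0.31, limma adjusted p = 0.20). The 4 h Dex value passed without vehicle replicate 2 (-0.30, limma adjusted p = 0.021) and in a fit blocked on replicate number (limma adjusted p = 0.038).

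The ligands were then compared with each other at the same time, at their single doses. At 2 h CpdA stood above Dex in 4 of the 8 genes (HSPB8, HSPH1, HSPD1 and HSPE1) and below it in 1 (BAG3), where 6.18% of all genes tested were higher and 7.53% lower (13.7% either way). At 4 h it stood above Dex in 5 (HSPB8, HSPH1, HSPD1, HSPE1 and HSF2) and below it in 1 (HSPB1), where 18% were higher and 15.4% lower (33.4% either way). HSPB8 was 2.40-fold higher with CpdA at 2 h (log2 difference 1.27, limma adjusted p = 2.5e-05) and 3.79-fold higher at 4 h (1.92, SE 0.098, limma adjusted p = 8.0e-07). HSPH1 was 1.67-fold higher at 2 h (0.74, limma adjusted p = 0.00041) and 2.79-fold higher at 4 h (1.48, SE 0.088, limma adjusted p = 2.2e-06). These were the widest gaps between the ligands among the 8 genes at both times. The chaperonin genes differed less, HSPD1 by 0.54 (limma adjusted p = 1.9e-05) and HSPE1 by 0.32 (limma adjusted p = 0.00051) on the log2 scale at 4 h.

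The chaperonin difference at 2 h was close to the threshold. The log2 difference was 0.16 for both HSPD1 (limma adjusted p = 0.042) and HSPE1 (limma adjusted p = 0.048), and both failed the threshold when any 2 h library was left out (limma adjusted p of 0.15 to 0.28), when either 4 h CpdA library was left out (0.055 for HSPD1, 0.089 for HSPE1), without the filter on low genes (0.065 and 0.062) and without the abundance trend (0.088 and 0.091). HSPE1 also failed when either vehicle library was left out (log2 difference 0.16 in both fits). With median scaling HSPE1 failed (limma adjusted p = 0.057), and with quantile normalization HSPD1 failed (limma adjusted p = 0.072). BAG3 differed between the ligands at 2 h and was not called at 4 h. It was 1.35-fold lower with CpdA than with Dex at 2 h (log2 difference -0.44, SE 0.055, limma adjusted p = 0.00064, passing in all 20 alternative fits), whereas at 4 h the log2 difference was 0.05 (95% interval -0.08 to 0.17, limma adjusted p = 0.57).

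HSF2 was 1.27-fold higher with CpdA than with Dex at 4 h (log2 difference 0.35, SE 0.074, limma adjusted p = 0.0059), with all 4 libraries apart, but did not pass without CpdA 4 h replicate 1 (0.30, limma adjusted p = 0.058). HSPB1 was 1.16-fold lower with CpdA at 4 h (-0.22, limma adjusted p = 0.044). This HSPB1 call held in only 7 of 20 alternative fits. It was lost with median scaling (limma adjusted p = 0.069), without the filter on low genes (0.10) and without the abundance trend (0.077). It was lost too when only the 2 groups compared were fitted (0.14), or when any vehicle, 2 h Dex, 2 h CpdA or 4 h CpdA library was left out. Without Dex 4 h replicate 1 it was also lost, and the log2 difference shrank to -0.10. HSF1 was not called at either time, with log2 differences of -0.00 at 2 h (95% interval -0.14 to 0.14) and -0.15 at 4 h (-0.30 to -0.01, limma adjusted p = 0.089), the latter passing without Dex 4 h replicate 2 (-0.25, limma adjusted p = 0.0063) and with quantile normalization (limma adjusted p = 0.049). At 2 h the log2 difference was 0.17 for HSF2 (95% interval 0.01 to 0.34, limma adjusted p = 0.19) and -0.07 for HSPB1 (-0.23 to 0.09, limma adjusted p = 0.67).

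**Figure D3:**
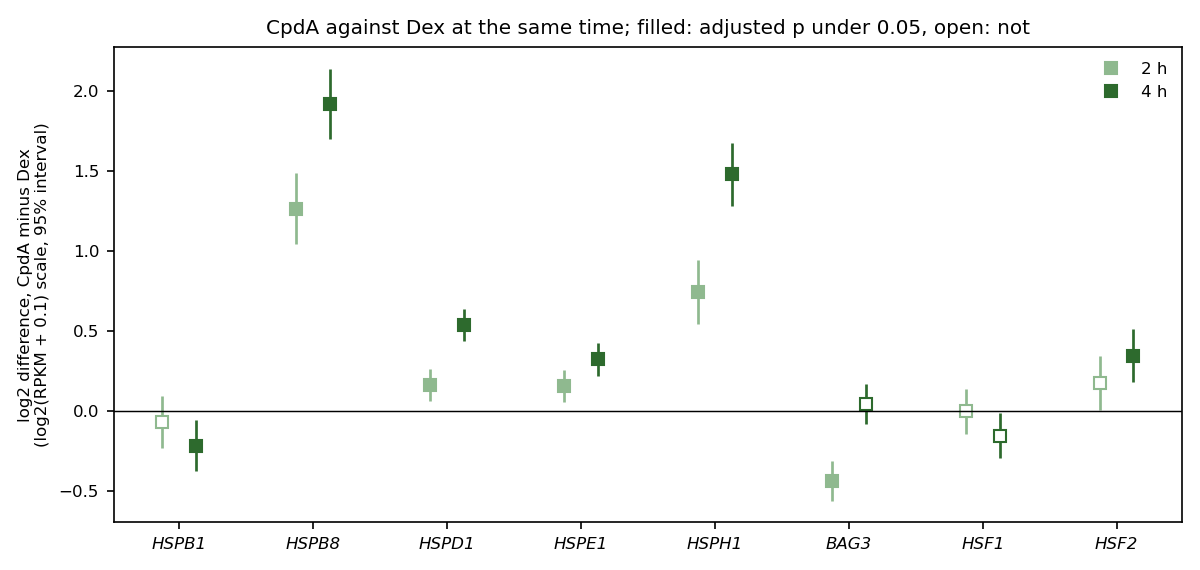
Log2 difference between CpdA and Dex at the same time (vertical axis, CpdA minus Dex, log2(RPKM + 0.1) scale) for the 8 genes tested, with the 95% interval of the limma fit (2 libraries a group); filled squares have an adjusted p under 0.05. HSPB8 and HSPH1 lie highest at both times, and BAG3 moves from -0.44 at 2 h to 0.05 at 4 h.

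Between 2 h and 4 h the level of 4 of these genes rose with CpdA, while no change between the times was called with Dex. From 2 h to 4 h of CpdA 4 of the 8 genes rose and none fell, where 5.21% of all genes rose and 7.2% fell (12.4% either way). Of all called genes 42% were higher, or 54.6% with median scaling. The log2 changes were 0.61 for HSPH1 (limma adjusted p = 0.0041), 0.49 for HSPB8 (limma adjusted p = 0.014), 0.34 for HSPD1 (limma adjusted p = 0.0029) and 0.33 for BAG3 (limma adjusted p = 0.0076). HSPE1 changed by 0.14 (95% interval 0.04 to 0.25), which did not pass (limma adjusted p = 0.069) except when either 4 h Dex library was left out (0.018 in both fits) or when only the CpdA groups were fitted (0.016). The HSPB8 increase failed the threshold when any of the 4 CpdA libraries was left out (limma adjusted p of 0.067 to 0.12, log2 changes of 0.43 to 0.55), and that of BAG3 failed without CpdA 2 h replicate 1 (0.30, limma adjusted p = 0.075) or CpdA 4 h replicate 2 (0.26, limma adjusted p = 0.066).

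From 2 h to 4 h of Dex limma called 0 of the 8 genes, where 13.6% of all genes tested were called (4.55% higher and 9.02% lower). Of all called genes 33.5% were higher ( 47.7% with quantile normalization, 53.3% with median scaling). At an unadjusted limma p under 0.05 there were 2, HSPB1 (log2 change 0.23, limma adjusted p = 0.060) and BAG3 (-0.15, limma adjusted p = 0.10). HSPB1 was called with quantile normalization (0.19, limma adjusted p = 0.044) and without Dex 4 h replicate 2 (0.35, limma adjusted p = 0.0031), a fit in which HSF1 was called as well (0.23, limma adjusted p = 0.015).

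Whether the change from 2 h to 4 h differed between CpdA and Dex was tested as an interaction. It was called for 4 of the 8 genes, all in the direction of a larger increase with CpdA, where 3.56% of all genes tested were called in that direction (6.6% either way). The log2 difference of changes was 0.74 for HSPH1 (SE 0.12, limma adjusted p = 0.010), 0.66 for HSPB8 (SE 0.14, limma adjusted p = 0.025), 0.48 for BAG3 (SE 0.078, limma adjusted p = 0.0081) and 0.38 for HSPD1 (SE 0.063, limma adjusted p = 0.0097). For BAG3 the means at 2 h and 4 h were 96.2 and 86.6 RPKM with Dex, a change that was not called, and 71.1 and 89.5 RPKM with CpdA. Without CpdA 2 h replicate 1 none of the 4 passed (limma adjusted p of 0.051 to 0.095), with log2 values of 0.36 to 0.68, and without CpdA 4 h replicate 2 only HSPH1 and BAG3 passed. HSPB8 also failed without Dex 2 h replicate 2 (limma adjusted p = 0.10), CpdA 2 h replicate 2 (0.099) or CpdA 4 h replicate 1 (0.12), and without the filter on low genes (0.069). HSPB1 (-0.26, limma adjusted p = 0.033) and HSF1 (-0.25, limma adjusted p = 0.042) passed without Dex 4 h replicate 2, and HSPE1 without Dex 4 h replicate 1 (0.22, limma adjusted p = 0.041).

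The wider heat shock response was read from lists of related genes. Of 22 other chaperones and stress genes controlled by heat shock factors or working with HSP70 and HSP90, 21 were tested, and after 4 h of CpdA 17 rose and 0 fell, with a median log2 fold change of 0.40 against -0.04 for all genes tested. Of all genes tested 6.76% rose and 13.8% fell after 4 h of CpdA, and 1.89% and 4.29% after 2 h. With Dex 4.49% rose and 5.82% fell at 2 h, and 9.26% and 18.2% at 4 h. In the list 8 rose and 0 fell after 2 h of CpdA (median 0.14). After 2 h and 4 h of Dex 3 of the list rose each time and 1 and 3 fell (medians -0.07 and -0.07). Among those that rose with Dex were DNAJB1 and DNAJB4, co-chaperones of HSP70 named after their values were seen: at 2 h their log2 fold changes were 0.48 and 1.34 with Dex and 1.52 and 0.68 with CpdA. Like BAG3, both rose in all 4 treatments. Those that fell were DNAJB6 at both times (-0.26 and -0.42) and FKBP4 (-0.16) and HSPA4L (-0.65) at 4 h, also named after their values were seen. The 3 largest changes with CpdA were in inducible HSP70 genes, HSPA6 (0.394 RPKM with vehicle, 12.7 and 49.0 RPKM after 2 h and 4 h of CpdA), HSPA1A (1.65, 12.5 and 22.7 RPKM) and HSPA1B (5.18, 32.9 and 55.6 RPKM), of which HSPA1A and HSPA1B are near-identical copies that can share reads. Promoter windows were found for 19 of the 22, of which 15 held a GAA pair and 8 the longer pattern. Among all gene symbols with a window these shares were 16.2% and 0.608%.

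Lists of the families nearest to the 9 genes gave the following counts. Beside them, 6.76% of all genes tested rose and 13.8% fell after 4 h of CpdA, and 9.26% and 18.2% after 4 h of Dex. At 2 h the shares were 1.89% and 4.29% with CpdA, and 4.49% and 5.82% with Dex. Of the 9 subunits of TRiC, the chaperonin of the cytosol that folds actin and tubulin, 3 rose after 4 h of CpdA and none fell (median 0.11), the largest called changes being in TCP1, CCT2 and CCT8, at 56.8, 82.1 and 73.8 RPKM with vehicle and 69.4, 91.8 and 80.9 RPKM after 4 h of CpdA. None of the 9 was called at 2 h of CpdA or at either time of Dex (medians 0.00, -0.03 and 0.05). Of 9 other mitochondrial chaperones and proteases 4 rose and none fell after 4 h of CpdA (median 0.07), among them HSPA9, the mitochondrial HSP70 (89.4 RPKM with vehicle, 112 RPKM after 4 h of CpdA), and its exchange factors GRPEL1 (36.8 and 41.5 RPKM) and GRPEL2 (6.15 and 7.12 RPKM). The other of the 4 was YME1L1 (log2 fold change 0.15), and at 2 h of CpdA GRPEL2 alone was called, at 7.38 RPKM (median of the list 0.02). With Dex 2 of these 9 fell at 2 h and 3 fell and 1 rose at 4 h, GRPEL1 and GRPEL2 falling at both times (31.8 and 4.77 RPKM at 4 h), with medians of -0.03 and -0.05. At 4 h DNAJA3 also fell (-0.23) and CLPP rose (0.18), which with YME1L1 were named after their values were seen.

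The 5 other BAG genes had other courses than BAG3. At 2 h of Dex none was called (median -0.09), and at 2 h of CpdA 1 fell (BAG5, to 10.2 RPKM, median of the list 0.04). After 4 h of CpdA 1 rose (BAG2, 23.6 to 27.6 RPKM) and 1 fell (BAG5, 11.8 to 10.1 RPKM), with a median log2 fold change of -0.06. After 4 h of Dex BAG1, BAG2 and BAG5 fell by 0.24, 0.34 and 0.19 on the log2 scale and none rose (median -0.195), where BAG3 had risen. Of all genes tested 18.2% fell and 9.26% rose after 4 h of Dex, and 13.8% and 6.76% after 4 h of CpdA. At 2 h 5.82% fell and 4.49% rose with Dex, and 4.29% and 1.89% with CpdA. Of 8 further heat shock factor genes and HSF regulators 5 were listed and 4 tested, and none was called after 2 h or 4 h of CpdA or 2 h of Dex, while HSBP1L1, named after its values were seen, rose after 4 h of Dex (log2 fold change 0.32). Beside CRYAB, C11orf52 was near the filter (0.250 to 0.749 RPKM) and fell after 4 h of Dex (log2 fold change -0.78, limma adjusted p = 0.039), where the 2 h Dex libraries averaged 0.600 RPKM, and the readthrough gene HSPB2-C11orf52 was near 0 throughout.

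**Figure D4:**
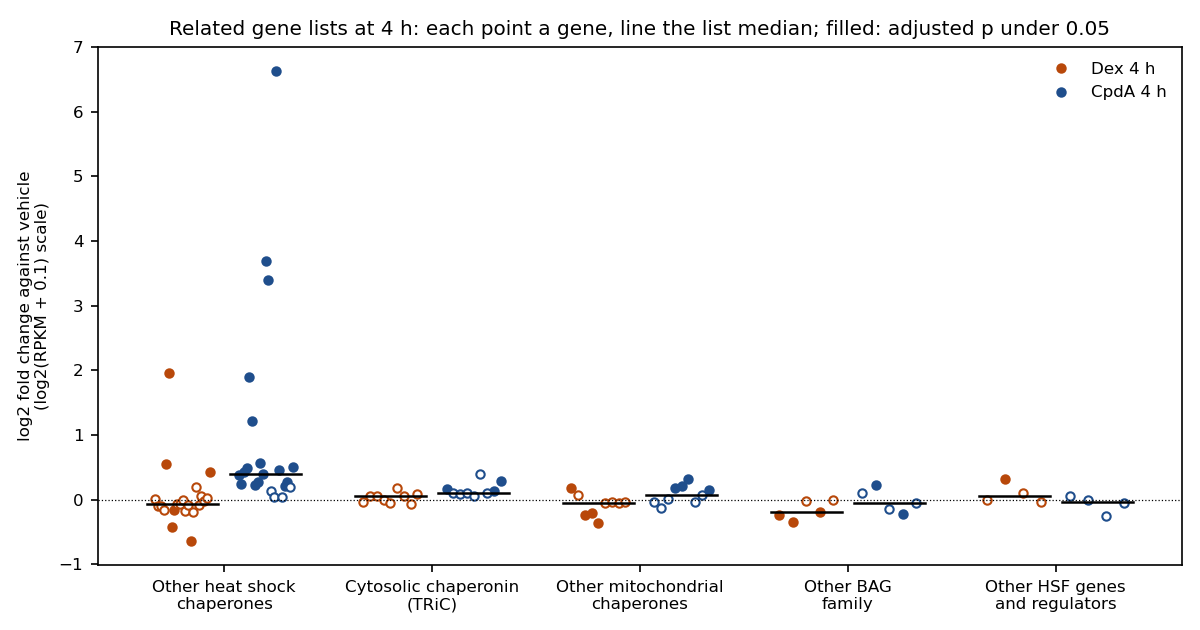
Log2 fold change against vehicle at 4 h (vertical axis, log2(RPKM + 0.1) scale) of genes in 5 related lists, for Dex and CpdA (2 libraries a group); each point is 1 gene, filled at an adjusted p under 0.05, and each black line is the median of a list. The other heat shock chaperones lie mostly above 0 with CpdA (median 0.40) and around 0 with Dex (median -0.07), while the medians of the other lists lie between -0.195 and 0.11.

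The genes did not form a single group across the 10 libraries. As a description, over libraries that share 5 groups, HSPB8, HSPH1, HSPD1 and HSPE1 went together, with Pearson's r of log2 levels between 0.90 and 0.97. HSF2 was nearer to that set (0.69 to 0.89) than HSF1 was (-0.49 to -0.30), and BAG3 was near 0 with all 4 (-0.10 to 0.17). HSPB1 was most like HSF1 (0.81) and BAG3 (0.63), and for both HSPB1 and HSF1 the highest library was replicate 1 of the 4 h Dex group. Among all 12713 genes the levels most like a member's were those of ZNF263, IFRD1 and MIS12 for HSPB8 (r = 0.997, 0.996 and 0.994), FKBP4, HMOX1 and ELOVL5 for HSPH1 (r = 0.992, 0.989 and 0.988), and ANKRD28, HARBI1 and LOC728323 for BAG3 (r = 0.940, 0.916 and 0.910). FKBP4 encodes an HSP90 co-chaperone that also binds steroid receptors, and HMOX1 the stress-inducible heme oxygenase, whose mean level went from 15.7 RPKM with vehicle to 8.21 RPKM after 4 h of Dex and 103 RPKM after 4 h of CpdA. IFRD1 averaged 15.9 RPKM with vehicle, 12.6 RPKM after 4 h of Dex and 23.5 RPKM after 4 h of CpdA, the same order as HSPB8. ANKRD28 averaged 25.6 RPKM with vehicle and was highest after 2 h of Dex (33.9 RPKM), as BAG3 was.

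The promoters were also searched for GNACA and TGTNC with 3 bases between them, the palindrome of a full glucocorticoid response element. None of the 7 genes with a window held it, BAG3 and HSPB1 included, against 0.48% of all gene symbols with a window (0.39% of windows), which says only that these letters are not in those windows. BAG3 (chr10:121410892-121437331), HSPH1 (chr13:31709110-31736525) and HSF2 (chr6:122720696-122754264, all GRCh37) had a window but no GAA pair in it. No window was at hand for CRYAB, and HSF1 was not searched because its chromosome was left out.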

How the data were processed

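RNA from MDA-MB-231 cells was analysed in 10 libraries (5 groups of 2, grouped by their titles), which the study calls biological replicates. The authors aligned 50-base reads to hg19 and deposited RPKM values per gene and library. Per the study's methods reads were aligned with TopHat2 2.0.13 and abundances computed in Partek 6.6. The submitters' processing notes also name Bowtie, and the gene models are not given in the sources used here. No counts were at hand, so limma 3.58.1 (R 4.3.3) was fitted to log2(RPKM + 0.1) of all 10 libraries, with an abundance trend, and adjusted by Benjamini-Hochberg over the 12713 genes with at least 0.5 RPKM in 2 libraries. With 2 libraries against 2, an exact permutation test of a single gene cannot go below p = 0.333. Tables and figures were made with Python 3.11.15, pandas 2.3.3 and matplotlib 3.10.9.

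Depth (about 51300000 to 62100000 reads) was estimated from the smallest RPKM step of genes with a known hairpin length. The 12 other samples of the series (chromatin) were not analysed here. All 9 genes were named whatever their values, with at most 3 genes a list by size of called change after 4 h of CpdA, and 3 most similar genes each for the 3 genes of widest range. Members and lists were chosen with earlier results of these data known. The fit was tested on simulated data with independent normal noise. These held no replicate effect and no mixed vehicle times, so the test does not bear on either. Alternatives were other pseudocounts, filters, scalings and variance settings, the groups compared alone, a replicate block and leaving out each library. The values of 1 gene of the list of other chaperones and stress genes are not reported here.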

Additional observations from a re-analysis of the deposited data

Results flagged for a closer look

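For 4 genes the change from 2 h to 4 h differed between CpdA and Dex by the limma interaction test, with a larger increase under CpdA: HSPH1 (0.74 on the log2 scale), HSPB8 (0.66), BAG3 (0.48) and HSPD1 (0.38). For HSPB8, HSPH1 and HSPD1 the means went up with CpdA and slightly down with Dex, and for BAG3 the mean went from 71.1 to 89.5 RPKM with CpdA and from 96.2 to 86.6 RPKM with Dex. None of the 4 passed without CpdA 2 h replicate 1 (limma adjusted p of 0.051 to 0.095).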

How the results depend on the processing

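In all, 1440 values of the 8 genes were recomputed, of which 1353 kept their side of the threshold. Another 60 no longer passed, 27 newly passed and 0 reversed a called direction. Values called in neither fit could change sign, as that of HSF2 at 2 h of Dex did (log2 fold change -0.14 to 0.05). At 4 h of CpdA against vehicle 5 to 6 genes were called with each library left out in turn (5 in the fit as described), and at 4 h of Dex 4 to 5 (4). Leaving out a library gave 1 to 4 genes at 2 h of Dex (2), with 4 when either 4 h Dex library was removed, and 1 to 4 at 2 h of CpdA (3). It gave 3 to 5 for CpdA against Dex at 2 h (5), where 3 were also called without the filter and 3 without the abundance trend, and 4 to 7 at 4 h (6). It gave 0 to 2 for Dex at 4 h against 2 h (0), where quantile normalization called 1, then 2 to 5 for CpdA at 4 h against 2 h (4) and 0 to 6 for the interaction (4). Calls over all genes moved in the same fits, from 592 to 3440 for Dex at 4 h against 2 h (1725), 261 to 2500 for CpdA at 4 h against 2 h (1577), and 293 to 2132 for the interaction (839). The cause of these shifts was not tested. A lone library in a group is assumed to vary like the other groups. Fitting only the groups compared called 1775 genes of all those tested in place of 3487 at 4 h of Dex, 480 in place of 786 at 2 h of CpdA, 696 in place of 1725 for Dex at 4 h against 2 h, and 3500 in place of 1577 for CpdA at 4 h against 2 h.

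The replicate numbers were not used to pair the libraries in the fit as described. Same-numbered libraries correlated between -0.06 and 0.20 in their deviations over all genes tested, over 0.1 in 3 of 10 pairs. For HSPH1 replicate 1 lay below replicate 2 in every group, while for BAG3 the order differed between groups. Whether same-numbered libraries were handled together was not tested. With the number as a block, 3 genes were called at 2 h of Dex (HSPH1 added; 1454 of all genes, 1311 without the block) and 5 at 4 h (HSF2 added; 3763 and 3487), then 3 and 5 at 2 h and 4 h of CpdA, 5 and 6 for CpdA against Dex at 2 h and 4 h, 0 for Dex and 4 for CpdA between the times, and 4 for the interaction. Depth limits CRYAB, at 0 to 3 reads.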
